A study of Mus musculus with 24 samples.

Results

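The 9 genes described here encode the enzymes that make serine and pass its side-chain carbon to folate: Phgdh, Psat1, Psph, Shmt1, Shmt2, Mthfd1, Mthfd1l, Mthfd2 and Aldh1l2. They were taken by gene symbol from a table of 33034 genes, each symbol matched 1 entry, and all 9 passed the filter on low counts in every fit. RNA was sequenced from MOVAS cells, a line of mouse aortic smooth muscle cells, in 24 libraries of 8 groups with 3 libraries each. Each of 4 cell backgrounds was given rhCTHRC1, the recombinant human form of a secreted glycoprotein of the extracellular matrix, or vehicle. The backgrounds were ADAM9i (WT genotype with an inhibitor of the membrane metalloprotease ADAM9), Adam9-KO (the Adam9 gene knocked out), Rosa26-KO (a knockout at the Rosa26 locus, widely used as an editing control) and WT (neither edited nor given the inhibitor). The sources used here do not name the inhibitor, the dose, the time or the way of editing, nor whether an edited line was 1 clone or a pool. They also do not say whether the 3 libraries of a group came from separate cultures, so the p-values measure only the spread between these libraries, which may be technical.

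Serine synthesis branches from glycolysis, and serine then feeds the folate cycle that supplies carbon for purines, thymidylate and methyl groups. In many proliferating cells the mitochondrial arm of this cycle turns serine into formate, and the cytosolic arm uses the formate. The transcription factor ATF4, which responds to amino-acid shortage and to stress of the endoplasmic reticulum, is known to induce several of these genes in mouse and human cells. Phgdh, Psat1 and Psph carry out the first, second and last steps of serine synthesis. Shmt2 (mitochondrial) and Shmt1 (cytosolic and nuclear) split serine into glycine and a folate-bound carbon. In mitochondria, Mthfd2 oxidises that carbon, Mthfd1l releases it as formate, and Aldh1l2 oxidises it fully to CO2 while making NADPH. Mthfd1 is the cytosolic enzyme that joins formate to folate and interconverts the folate forms.

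Promoters of 3 of the enzymes are shown beside that of Asns, because Asns was the gene whose pattern lay nearest to that of Mthfd2 and holds an ATF4-type motif that no matched enzyme has in the same window. The sequences are RefSeq's for GRCm38.p6, from 250 bases before to 50 bases after the annotated start. Each is read 5′ to 3′ on the strand to which its gene is annotated, which is the minus strand for all 4. Phgdh is read from chr3:98339920-98340219, Psat1 from chr19:15925010-15925309, Mthfd2 from chr6:83317555-83317854 and Asns from chr6:7693160-7693459. RefSeq gives 2 windows for Psat1, and the one shown is the first. The second, chr19:15924573-15924872, holds 0 matches to CCAAT. The start of the window shown lies inside the longer interval that the authors' table gives for Psat1, so the 2 annotations differ on where that gene starts. Capitals mark CCAAT, or ATTGG where the motif lies on the other strand, in the first 3 and TGATGAAA in Asns.
Phgdh: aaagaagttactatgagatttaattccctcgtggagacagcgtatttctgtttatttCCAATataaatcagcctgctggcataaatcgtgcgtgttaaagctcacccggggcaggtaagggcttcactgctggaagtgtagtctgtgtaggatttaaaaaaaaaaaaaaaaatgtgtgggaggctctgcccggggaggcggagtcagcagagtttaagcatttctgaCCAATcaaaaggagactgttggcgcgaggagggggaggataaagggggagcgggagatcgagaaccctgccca
Psat1: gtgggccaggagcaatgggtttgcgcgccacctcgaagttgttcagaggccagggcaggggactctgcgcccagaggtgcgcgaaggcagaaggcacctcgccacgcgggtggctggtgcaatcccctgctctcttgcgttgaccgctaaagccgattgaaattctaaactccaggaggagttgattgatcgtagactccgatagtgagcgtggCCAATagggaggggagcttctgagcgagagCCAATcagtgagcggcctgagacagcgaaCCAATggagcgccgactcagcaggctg
Mthfd2: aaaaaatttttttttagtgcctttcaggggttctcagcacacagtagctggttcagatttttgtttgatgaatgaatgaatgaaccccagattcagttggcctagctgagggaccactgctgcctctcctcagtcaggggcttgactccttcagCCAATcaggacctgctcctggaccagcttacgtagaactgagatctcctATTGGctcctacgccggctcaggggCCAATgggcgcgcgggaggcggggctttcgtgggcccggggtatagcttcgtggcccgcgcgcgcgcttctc
Asns: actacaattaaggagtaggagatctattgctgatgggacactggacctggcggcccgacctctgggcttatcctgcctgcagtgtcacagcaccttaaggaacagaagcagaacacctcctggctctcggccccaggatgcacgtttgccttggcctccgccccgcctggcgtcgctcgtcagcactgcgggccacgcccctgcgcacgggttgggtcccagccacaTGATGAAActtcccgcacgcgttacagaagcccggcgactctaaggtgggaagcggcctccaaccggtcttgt
The table held a promoter for 8 of the 9 genes. The C/EBP-ATF response element TGATGNAA, searched on both strands, was in the promoter window of 0 of these 8 genes, against 9 of 19 matched genes of a list linked to ATF4 and 4.51% of all 26994 genes with a promoter. The E-box CACGTG, a motif bound by MYC among others and the same on both strands, was in 0 of the 8, against 8.09% of all genes. CCAAT, searched on both strands, was in 6 of the 8 (Phgdh, Psat1, Psph, Shmt1, Mthfd1 and Mthfd2), against 41.0% of all genes. For Psat1 it was in 1 of 2 windows. This last motif was chosen after the sequences were seen, and the 3 motifs do not overlap in these windows. A match is no evidence of binding, and a missing match says only that these letters are not in this window.

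In the authors' gene table, with GRCm38 named in the submitters' processing notes, the genes of serine synthesis are Phgdh (ENSMUSG00000053398, chromosome 3, 98313170 to 98339990, minus strand), Psat1 (ENSMUSG00000024640, chromosome 19, 15904678 to 15947337, minus strand) and Psph (ENSMUSG00000029446, chromosome 5, 129765558 to 129787449, minus strand). The mitochondrial enzymes are Shmt2 (ENSMUSG00000025403, chromosome 10, 127517123 to 127522444, minus strand), Mthfd2 (ENSMUSG00000005667, chromosome 6, 83305691 to 83317606, minus strand), Mthfd1l (ENSMUSG00000040675, chromosome 10, 3973118 to 4167081, plus strand) and Aldh1l2 (ENSMUSG00000020256, chromosome 10, 83487450 to 83534140, minus strand). The cytosolic enzymes are Shmt1 (ENSMUSG00000020534, chromosome 11, 60788104 to 60811265, minus strand) and Mthfd1 (ENSMUSG00000021048, chromosome 12, 76255298 to 76319803, plus strand). Phgdh, Psat1 and Shmt2 share no bases with another entry. Psph overlaps the opposite-strand Cct6a, Shmt1 the opposite-strand Smcr8 and Gm24945, Aldh1l2 the opposite-strand D10Wsu102e, and Mthfd1 3 opposite-strand entries. Mthfd2 and Mthfd1l overlap the same-strand entries Gm43890 and Gm16074. Whether counting used strand is not stated, so reads in these overlaps cannot be told apart.

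Each library held 53135752 to 65833125 counts in genes, and each enzyme had at least 1856 counts in every library. Levels are given as CPM, the share of a library's counts after TMM scaling, which sets libraries on a common level through a trimmed mean over genes. The targeted gene was checked first. Adam9 was at 138, 136 and 146 CPM in the Adam9-KO rhCTHRC1 libraries and 130.1, 136 and 149.8 CPM in the Adam9-KO vehicle libraries, against 277, 279.7 and 295 CPM and 229, 237 and 241 CPM in the matching Rosa26-KO libraries, so its transcript was lower but present (log2 difference -1.02 ± 0.05 under rhCTHRC1 and -0.78 ± 0.05 under vehicle). Adam9 was also lower in the unedited ADAM9i vehicle libraries, at 159, 162 and 172 CPM, against 255, 211 and 281 CPM in WT vehicle libraries (log2 difference -0.61 ± 0.12, and -0.52 ± 0.09 against Rosa26-KO vehicle), so a lower level was not particular to the knockout. The 3 WT vehicle libraries stood apart from the other 21. On the first principal component, with 24.9% of the variance, they lay at -119.3 to -114.5 and the others at -7.2 to 54.3. Of 12 smooth muscle markers, 10 or 11 reached 1 CPM in each group. Myh11 was at 0.855 CPM or less and Cnn1 at 1.87 CPM or less in every library, so both were near absent. Smtn, another of the 12, was at 69.8 to 98.7 CPM. Epithelial markers summed to 0.995 CPM or less, macrophage markers to 2.83 to 17.6 CPM and endothelial markers to 2.46 to 27.2 CPM. Fibroblast markers summed to 78.5 to 511 CPM, with Pdgfra at 44.5 to 406 CPM. The smooth muscle marker Acta2 ran from 39.1 to 482 CPM. Its log2 change under rhCTHRC1 was -3.35 ± 0.08 in Rosa26-KO, -2.29 ± 0.12 in WT, -0.29 ± 0.11 in ADAM9i and -0.15 ± 0.07 in Adam9-KO cells. The smooth muscle markers did not all follow Acta2. Of the 12, 4 were called higher and 5 lower in Rosa26-KO cells, and 7 higher and 4 lower in WT cells.

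In Adam9-KO cells 0 of the 9 enzymes passed the threshold of an adjusted p under 0.05 between rhCTHRC1 and vehicle, with log2 changes (± SE) of -0.14 to 0.16. Mthfd2 was at 174, 167 and 169.7 CPM in the rhCTHRC1 libraries of Adam9-KO cells, against 180.2, 173 and 158 CPM in the vehicle libraries, and the libraries of both groups overlapped (log2 change 0.0045 ± 0.05, adjusted p = 0.992). Phgdh was at 444, 475 and 469 CPM in the rhCTHRC1 libraries of Adam9-KO cells, against 476, 476 and 447 CPM in the vehicle libraries (log2 change -0.0048 ± 0.03). Psat1 was at 595, 588 and 627 CPM in the rhCTHRC1 libraries of Adam9-KO cells, against 589, 580.2 and 597 CPM in the vehicle libraries (log2 change 0.04 ± 0.03). All 3 genes had overlapping treated and vehicle libraries. Shmt1 was at 58.0, 56.4 and 54.4 CPM in the rhCTHRC1 libraries of Adam9-KO cells, against 60.4, 65.6 and 60.5 CPM in the vehicle libraries (log2 change -0.14 ± 0.05, adjusted p = 0.54), and Mthfd1 at 107, 103 and 123 CPM in the rhCTHRC1 libraries of Adam9-KO cells, against 97.2, 102 and 101 CPM in the vehicle libraries (log2 change 0.16 ± 0.06, adjusted p = 0.594). Their libraries did not overlap, with Shmt1 lower and Mthfd1 higher under treatment, a separation seen in 6.17% of all genes toward lower and 5.34% toward higher levels, and they were the 2 enzymes with an unadjusted p under 0.05. The other 4 had log2 changes of -0.08 ± 0.04 (Aldh1l2), 0.02 ± 0.05 (Mthfd1l), 0.02 ± 0.04 (Shmt2) and 0.09 ± 0.06 (Psph). By edgeR 0 of 18594 genes (0.0%) were called in this background, and 1387 had an unadjusted p under 0.05. DESeq2 called 37 genes, limma on log2(FPKM + 1) called 0, or 1 with no filter on low values, and all of these called 0 of the 9.

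In Rosa26-KO cells all 9 transcripts were lower under rhCTHRC1 than under vehicle. The log2 changes ran from -1.87 for Mthfd2 to -0.69 for Shmt1, and the mitochondrial Mthfd2 and Shmt2 and the 3 enzymes of serine synthesis fell furthest. Of all 18594 genes tested, 4326 (23.3%) were called lower and 4087 (22.0%) higher at an adjusted p under 0.05. Scaling by library size alone gave 3486 lower and 5084 higher genes and kept all 9 enzymes lower. The median change was -1.17 for the 9 and 0.03 for all genes. Lower levels from fewer cells of a type and lower levels from less RNA per cell cannot be told apart in these bulk libraries.

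Phgdh, which commits glycolytic phosphoglycerate to serine, was at 221, 222 and 216 CPM in the rhCTHRC1 libraries of Rosa26-KO cells, against 494, 499 and 487 CPM in the vehicle libraries. Its log2 change was -1.17 ± 0.03 (SE), or 0.446 times vehicle (adjusted p = 7.82e-15). Psat1, the transaminase of the following step, was at 277, 255 and 267 CPM in the rhCTHRC1 libraries of Rosa26-KO cells, against 651, 659.9 and 643 CPM in the vehicle libraries (log2 change -1.29 ± 0.03). No treated library of either gene came near a vehicle library. Psph, the phosphatase that releases serine, was at 44.4, 40.4 and 34.9 CPM in the rhCTHRC1 libraries of Rosa26-KO cells, against 112, 115 and 110.2 CPM in the vehicle libraries (log2 change -1.49 ± 0.06). Psph, too, had every treated library far below every vehicle library.

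Among the mitochondrial enzymes, Mthfd2 was at 47.6, 48.6 and 44.1 CPM in the rhCTHRC1 libraries of Rosa26-KO cells, against 179, 163 and 170.2 CPM in the vehicle libraries. This was the largest fall of the 9, to 0.274 times vehicle (log2 change -1.87 ± 0.05, adjusted p = 5.32e-15), and 132 of the 18594 genes fell further. Shmt2 was at 157, 152 and 142 CPM in the rhCTHRC1 libraries of Rosa26-KO cells, against 403, 404 and 383 CPM in the vehicle libraries (log2 change -1.40 ± 0.04). Mthfd1l was at 49.0, 51.9 and 44.7 CPM in the rhCTHRC1 libraries of Rosa26-KO cells, against 95.2, 92.1 and 90.6 CPM in the vehicle libraries (log2 change -0.93 ± 0.05). Aldh1l2 was at 273, 263 and 258 CPM in the rhCTHRC1 libraries of Rosa26-KO cells, against 462, 472 and 476 CPM in the vehicle libraries (log2 change -0.83 ± 0.04). Mthfd1l and Aldh1l2, which act on formyl folate, thus had smaller changes than Shmt2 and Mthfd2, which act before them.

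The cytosolic enzymes had the smallest changes. Shmt1 was at 43.3, 45.2 and 42.9 CPM in the rhCTHRC1 libraries of Rosa26-KO cells, against 71.4, 71.0 and 69.4 CPM in the vehicle libraries (log2 change -0.69 ± 0.05, 0.621 times vehicle, adjusted p = 1.01e-09). Mthfd1 was at 77.3, 73.3 and 66.7 CPM in the rhCTHRC1 libraries of Rosa26-KO cells, against 116, 126 and 116 CPM in the vehicle libraries (log2 change -0.72 ± 0.06). In all 9 genes the 3 treated libraries lay below the 3 vehicle libraries, as did those of 27.4% of all genes, and in 28.1% of all genes they lay above. Over the same libraries the 7 fibroblast markers summed to 490.4 to 511 CPM under rhCTHRC1 and 311 to 337 CPM under vehicle (4 rose and 0 fell), and the 12 smooth muscle markers to 1297 to 1323 and 1866 to 1918 CPM (4 rose and 5 fell). Their part in the result was not tested.

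**Figure D1:**
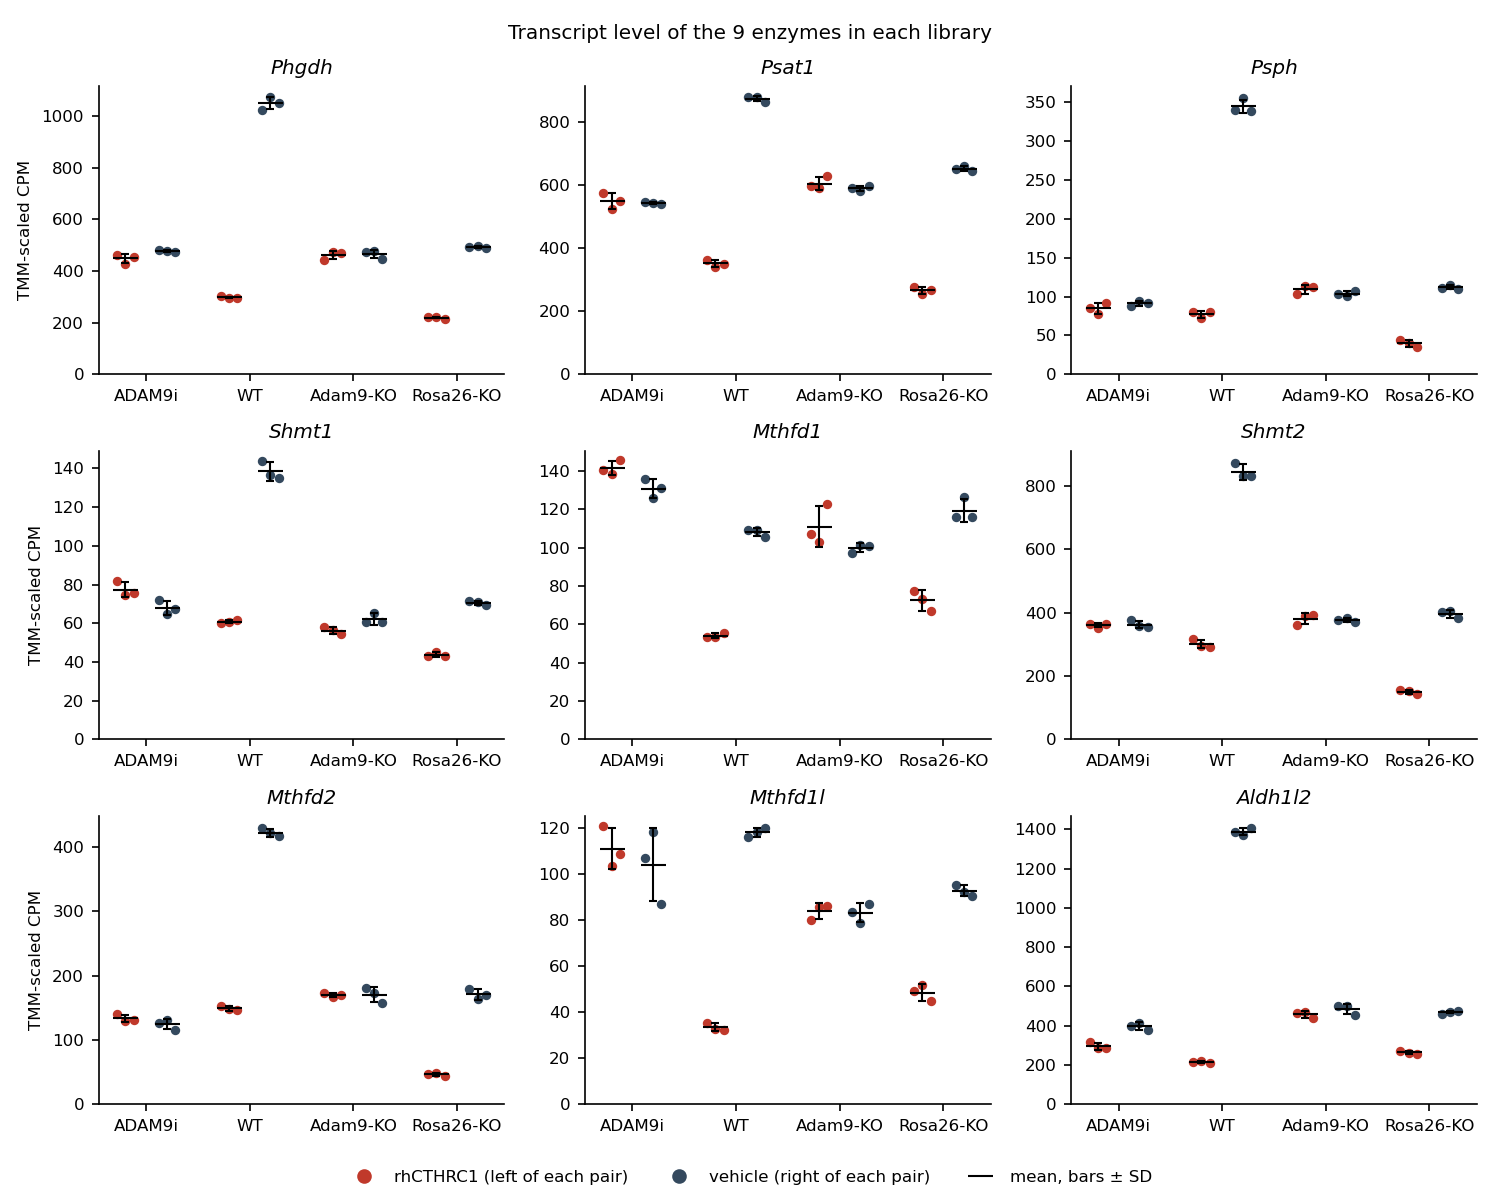
Level of each of the 9 enzymes (TMM-scaled CPM, linear axes from 0) in the 24 libraries, by background, with rhCTHRC1 left of vehicle, points for libraries and bars for mean ± SD of 3. Adam9-KO pairs sit level or nearly so, Rosa26-KO treated libraries sit well below Rosa26-KO vehicle for all 9 genes, and WT vehicle is the highest group for 8 of the 9, with Mthfd1 the exception.

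The responses of Adam9-KO and Rosa26-KO cells differed for all 9 enzymes when the difference itself was tested, each less negative in Adam9-KO. Of all genes tested, 37.9% were called in this comparison, 20.1% higher and 17.8% lower (3743 and 3307 genes, or 2916 and 4153 when scaled by library size alone, which kept all 9 higher). The difference was largest for Mthfd2, at 1.87 ± 0.07 on the log2 scale (adjusted p = 1.41e-12). It was 1.58 ± 0.09 for Psph, 1.42 ± 0.06 for Shmt2, 1.33 ± 0.05 for Psat1 and 1.16 ± 0.05 for Phgdh. It was smaller for Mthfd1l (0.95 ± 0.08), Mthfd1 (0.88 ± 0.09), Aldh1l2 (0.75 ± 0.05) and Shmt1 (0.55 ± 0.07). The median was 1.16 for the 9 and -0.02 for all genes.

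**Figure D2:**
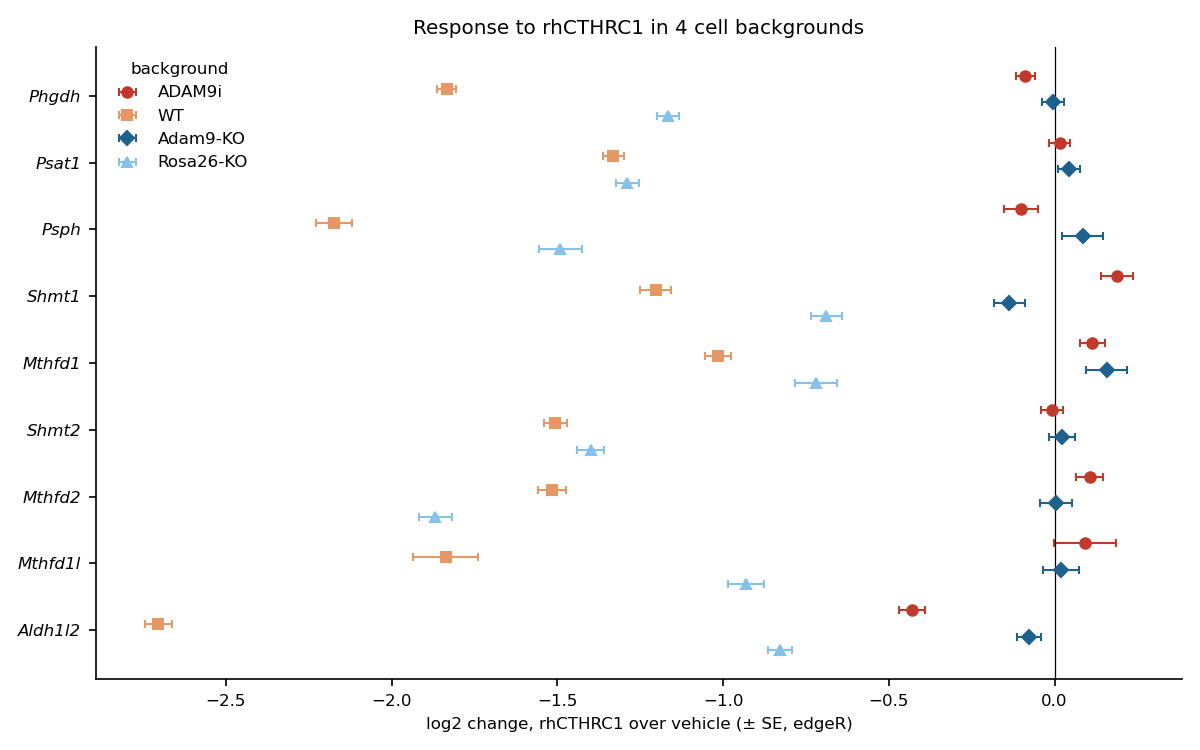
Log2 change under rhCTHRC1 over vehicle for each enzyme (rows) in ADAM9i, WT, Adam9-KO and Rosa26-KO cells, with bars for ± SE derived from the edgeR F statistic and a line at 0. The points of ADAM9i and Adam9-KO lie between -0.43 and 0.19, and those of WT and Rosa26-KO between -2.70 and -0.69.

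In ADAM9i cells 2 of the 9 enzymes passed the threshold, 1 in each direction, beside 3.98% of all genes (500 or 2.66% higher and 249 or 1.32% lower). Aldh1l2 was at 316, 286 and 286 CPM in the rhCTHRC1 libraries of ADAM9i cells, against 400.3, 417 and 379 CPM in the vehicle libraries, and the libraries did not overlap. Its log2 change was -0.43 ± 0.04 (adjusted p = 3.95e-06), and this call held in all alternatives run. Shmt1 was at 81.9, 74.8 and 75.6 CPM in the rhCTHRC1 libraries of ADAM9i cells, against 71.9, 64.6 and 67.3 CPM in the vehicle libraries (log2 change 0.19 ± 0.05, adjusted p = 0.0273). Its rise passed only narrowly. It missed the threshold without rhCTHRC1 library 1 (0.14) or 3 (0.20), without vehicle library 2 (0.15) or 3 (0.18), and in limma on FPKM (0.17 to 0.18). Phgdh was at 462, 429 and 456 CPM in the rhCTHRC1 libraries of ADAM9i cells, against 482, 478 and 472 CPM in the vehicle libraries (log2 change -0.09 ± 0.03, adjusted p = 0.108). Mthfd2 was at 140.4, 130.3 and 132 CPM in the rhCTHRC1 libraries of ADAM9i cells, against 127, 132 and 116 CPM in the vehicle libraries (log2 change 0.11 ± 0.04, adjusted p = 0.206). Mthfd2 libraries of both groups thus overlapped, while all 3 treated libraries lay below the vehicle ones for Phgdh and Aldh1l2, as in 9.47% of all genes, and above them for Shmt1 and Mthfd1, as in 11.0%. Mthfd1 was at 140.5, 138 and 146 CPM in the rhCTHRC1 libraries of ADAM9i cells, against 136, 126 and 131 CPM in the vehicle libraries. The remaining log2 changes were -0.10 ± 0.05 (Psph), -0.01 ± 0.03 (Shmt2), 0.02 ± 0.03 (Psat1), 0.09 ± 0.09 (Mthfd1l) and 0.11 ± 0.04 (Mthfd1), none past the threshold. Phgdh passed with library size alone (-0.10), and Mthfd1 in DESeq2 (0.12). The fibroblast markers summed to 284 to 295 CPM under rhCTHRC1 and 318 to 353 CPM under vehicle in ADAM9i cells (0 of 7 rose and 2 fell, with log2 changes of -0.31 ± 0.07 for Dcn and -0.22 ± 0.05 for Pdgfra), and their part in the result was not tested.

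In WT cells all 9 enzymes were lower under rhCTHRC1 than under vehicle, with log2 changes of -2.70 for Aldh1l2 to -1.02 for Mthfd1. Of 18816 genes tested, 5799 (30.8%) were called lower and 6053 (32.2%) higher, 63.0% in all. Library size alone gave 4637 and 7369, moved the median of all genes by 0.18 (log2), and left all 9 enzymes lower. Aldh1l2 was at 217, 218 and 211 CPM in the rhCTHRC1 libraries of WT cells, against 1386, 1371 and 1407 CPM in the vehicle libraries (log2 change -2.70 ± 0.04, adjusted p = 1.05e-19). Psph was at 79.5, 71.8 and 80.01 CPM in the rhCTHRC1 libraries of WT cells, against 339, 354 and 338 CPM in the vehicle libraries (log2 change -2.17 ± 0.05). Mthfd1l was at 35.4, 32.5 and 32.3 CPM in the rhCTHRC1 libraries of WT cells, against 116, 118 and 119.8 CPM in the vehicle libraries (log2 change -1.84 ± 0.10). The order of the changes was thus not that of Rosa26-KO cells, where Aldh1l2 and Mthfd1l were among the smaller ones. Phgdh was at 302, 295 and 297 CPM in the rhCTHRC1 libraries of WT cells, against 1025, 1072 and 1052 CPM in the vehicle libraries (log2 change -1.83 ± 0.03). Mthfd2 was at 153, 148 and 147 CPM in the rhCTHRC1 libraries of WT cells, against 429, 422 and 416 CPM in the vehicle libraries (log2 change -1.52 ± 0.04). Shmt2 was at 316, 295 and 293 CPM in the rhCTHRC1 libraries of WT cells, against 875, 831 and 832 CPM in the vehicle libraries (log2 change -1.51 ± 0.03). Treated levels of these 3 were 0.28, 0.349 and 0.352 times vehicle. Psat1 was at 363, 341 and 349 CPM in the rhCTHRC1 libraries of WT cells, against 876, 879 and 862 CPM in the vehicle libraries (log2 change -1.33 ± 0.03). Shmt1 was at 60.0, 60.8 and 61.8 CPM in the rhCTHRC1 libraries of WT cells, against 144, 136 and 135 CPM in the vehicle libraries (log2 change -1.20 ± 0.05). Mthfd1 was at 53.5, 53.2 and 55.5 CPM in the rhCTHRC1 libraries of WT cells, against 109, 109 and 106 CPM in the vehicle libraries (log2 change -1.02 ± 0.04). No treated library overlapped a vehicle library for any of the 9, a separation found in 33.5% of all genes toward lower and 35.8% toward higher levels.

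Since the WT vehicle libraries stood apart and held the highest level of 8 of the 9 enzymes, treated WT cells were also set against the other vehicle groups. These values hold any difference between backgrounds and, for ADAM9i, any effect of the inhibitor. Against Rosa26-KO vehicle all 9 remained lower, from -1.47 ± 0.08 for Mthfd1l to -0.20 ± 0.05 for Mthfd2 (adjusted p = 0.000816), with 5113 genes lower and 4851 higher of 19891. Against ADAM9i vehicle 8 were lower, but Mthfd2 was higher, at 0.26 ± 0.05 (adjusted p = 2.61e-05), with 5138 genes lower and 4886 higher. Against Adam9-KO vehicle 8 were lower and Shmt1 was at -0.03 ± 0.05 (adjusted p = 0.654), with 4748 genes lower and 4001 higher. Mthfd1 and Mthfd1l kept changes of -1.14 ± 0.05, -1.27 ± 0.05 and -0.89 ± 0.05 and of -1.47 ± 0.08, -1.64 ± 0.08 and -1.32 ± 0.08 in the 3 settings. For Shmt2 the values were -0.40 ± 0.04, -0.27 ± 0.04 and -0.33 ± 0.04, and for Psph -0.54 ± 0.06, -0.24 ± 0.06 and -0.43 ± 0.06. For Phgdh they were -0.73 ± 0.03, -0.68 ± 0.03 and -0.65 ± 0.03, for Psat1 -0.89 ± 0.03, -0.63 ± 0.03 and -0.75 ± 0.03, and for Aldh1l2 -1.13 ± 0.04, -0.89 ± 0.04 and -1.17 ± 0.04. The fibroblast markers summed to 413 to 438 CPM in treated WT libraries and 78.5 to 84.5 CPM in WT vehicle (6 of 7 rose and 0 fell), against 311 to 337 CPM in Rosa26-KO vehicle. The smooth muscle markers summed to 1107 to 1132 CPM and 1259.8 to 1372 CPM in the WT groups (7 of 12 rose and 4 fell), and the part of either list in the result was not tested.

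**Figure D3:**
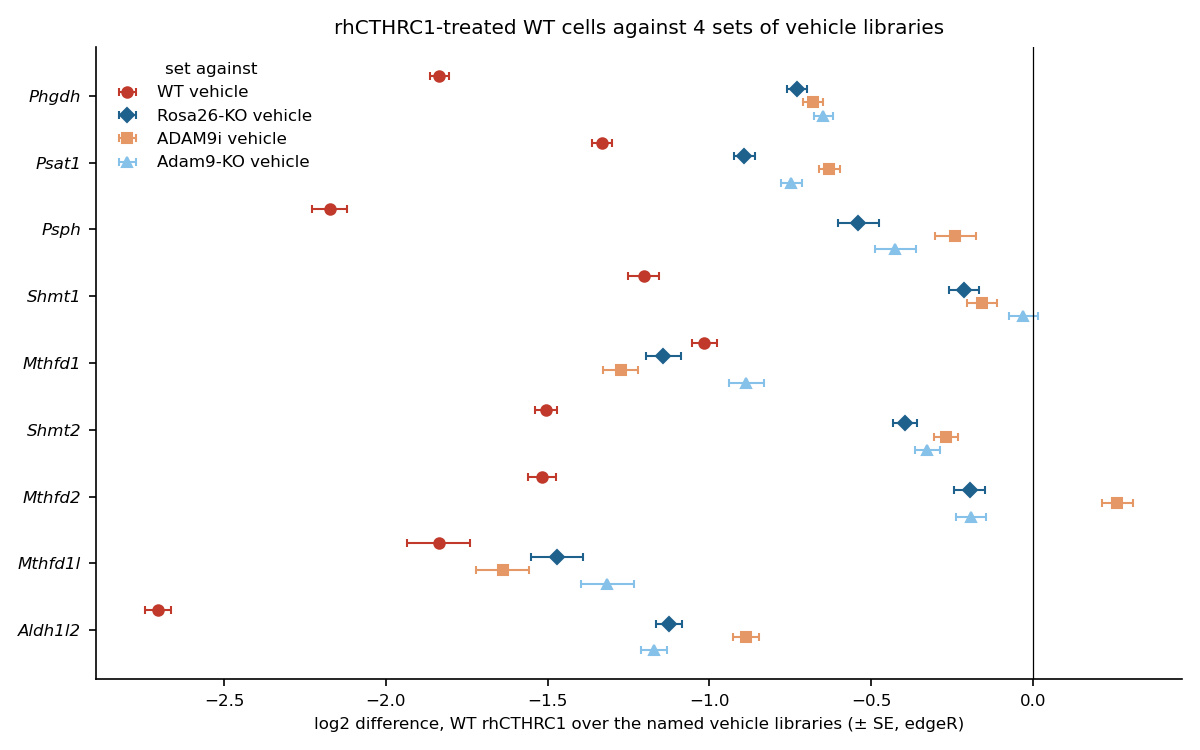
Log2 difference of the rhCTHRC1-treated WT libraries over WT vehicle, Rosa26-KO vehicle, ADAM9i vehicle and Adam9-KO vehicle libraries for each enzyme (rows), with bars for ± SE derived from the edgeR F statistic. Mthfd1 and Mthfd1l stay at or below -0.89 in every setting, and Mthfd2 crosses 0 with ADAM9i vehicle, at 0.26.

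The response of ADAM9i cells was less negative than that of WT cells for all 9 enzymes, beside 27.8% of all genes called higher and 28.3% lower, 56.0% in all. Library size alone turned the split over all genes to 4113 higher and 6558 lower (5222 and 5318 with TMM), shifted the median of all genes by -0.19, and kept all 9 higher. The differences ran from 1.13 ± 0.05 for Mthfd1 to 2.27 ± 0.05 for Aldh1l2 on the log2 scale, with adjusted p of 8.49e-17 to 9.85e-08. They rest on the WT vehicle libraries. Without those, with Rosa26-KO cells in the place of WT cells, all 9 were again less negative in ADAM9i, from 0.40 ± 0.06 for Aldh1l2 to 1.98 ± 0.07 for Mthfd2 (35.4% of all genes called, 19.1% higher and 16.4% lower). By genes these were 3792 and 3257, or 2970 and 4177 with library size alone, which kept all 9 enzymes higher. Aldh1l2 thus gave the largest difference against WT and the smallest against Rosa26-KO. The Rosa26-KO comparison also sets an edited line against an unedited one and shares the ADAM9i libraries with the first.

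Rosa26-KO and WT cells did not respond alike, each set against its own vehicle, and the WT vehicle libraries stood apart. For Aldh1l2, Rosa26-KO minus WT was -1.56 ± 0.04 between vehicle groups and 0.30 ± 0.04 between treated groups. It was -1.09 ± 0.03 and -0.44 ± 0.03 for Phgdh, and -1.31 ± 0.05 and -1.67 ± 0.05 for Mthfd2. The Rosa26-KO response was less negative than the WT response for 6 enzymes and more negative for Mthfd2, beside 43.8% of all genes called (21.7% higher and 22.1% lower, or 4325 and 4395 genes, and 3563 and 5068 with library size alone, which kept the 7 enzyme calls). For Aldh1l2 the difference was 1.86 ± 0.06, for Mthfd1l 0.89 ± 0.11, for Psph 0.67 ± 0.09, for Phgdh 0.65 ± 0.04, for Shmt1 0.50 ± 0.06 and for Mthfd1 0.28 ± 0.08. For Mthfd2 it was -0.37 ± 0.07 (adjusted p = 3.49e-05). Psat1 (0.02 ± 0.05, adjusted p = 0.723) and Shmt2 (0.09 ± 0.05, adjusted p = 0.188) did not pass. Shmt2 did pass without Rosa26-KO rhCTHRC1 library 3, at 0.13, and Mthfd1 missed the threshold in limma on log2(FPKM + 1), at 0.16, and with the other FPKM settings.

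Under vehicle no enzyme differed by more than the -0.27 of Mthfd1 (log2) between Adam9-KO and Rosa26-KO cells. Adam9-KO was lower for 4 of the 9 and higher for 0, beside 15.2% of all genes called, 8.83% lower and 6.37% higher (1641 and 1184 genes, or 1011 and 1764 with library size alone, which called 3 of the 4). Mthfd1 was at 97.2, 102 and 101 CPM in Adam9-KO vehicle libraries, against 116, 126 and 116 CPM in Rosa26-KO vehicle libraries (log2 difference -0.27 ± 0.06, adjusted p = 0.00816). Shmt1 differed by -0.20 ± 0.05, Mthfd1l by -0.17 ± 0.05 (adjusted p = 0.0454) and Psat1 by -0.16 ± 0.03. The Mthfd1l call was lost in most alternatives, among them the fit with the replicate number as a block (-0.17, adjusted p = 0.0558). It was also lost without Adam9-KO rhCTHRC1 library 1 (-0.16), Adam9-KO vehicle library 1 (-0.16) or 2 (-0.12), Rosa26-KO rhCTHRC1 library 1 (-0.17), or Rosa26-KO vehicle library 1 (-0.14), 2 (-0.16) or 3 (-0.19). The Shmt1 call was lost without Adam9-KO vehicle library 1 (-0.16), and Phgdh passed in DESeq2 and without Adam9-KO rhCTHRC1 library 3 (-0.09 in both). Mthfd2 (-0.02 ± 0.05) and Aldh1l2 (0.03 ± 0.04), did not pass, and their vehicle libraries overlapped.

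ADAM9i vehicle was lower than Rosa26-KO vehicle for 5 enzymes and higher for 0 (15.2% of all genes called, 7.92% lower and 7.31% higher). Mthfd2 was at 127, 132 and 116 CPM in ADAM9i vehicle libraries, against 179, 163 and 170.2 CPM in Rosa26-KO vehicle libraries (log2 difference -0.46 ± 0.05). Psph (-0.30 ± 0.06), Psat1 (-0.26 ± 0.03) and Aldh1l2 (-0.24 ± 0.04) were also lower. Shmt2 (-0.13 ± 0.04) lost its call without ADAM9i vehicle library 2 (-0.12) or 3 (-0.11) or Rosa26-KO vehicle library 1 (-0.12) or 2 (-0.11). The remaining 4 did not pass, although Mthfd1l did without ADAM9i vehicle library 3 (0.28) and Mthfd1 without Adam9-KO rhCTHRC1 library 3 (0.13).

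Against WT vehicle the differences were large and of the same kind in both backgrounds, which share those WT libraries. ADAM9i vehicle was lower than WT vehicle for 7 enzymes and higher for Mthfd1 (57.4% of all genes called, 27.5% lower and 29.9% higher), and Rosa26-KO vehicle was lower for 8 and higher for Mthfd1 (53.7% called, 25.8% lower and 27.9% higher). Psph differed by -1.92 ± 0.05 (ADAM9i minus WT) and -1.62 ± 0.06 (Rosa26-KO minus WT), and Aldh1l2 by -1.81 ± 0.04 and -1.56 ± 0.04. Mthfd2 differed by -1.77 ± 0.04 and -1.31 ± 0.05, Shmt2 by -1.23 ± 0.03 and -1.09 ± 0.04, and Phgdh by -1.14 ± 0.03 and -1.09 ± 0.03. Mthfd1 stood out with differences of 0.27 ± 0.04 and 0.14 ± 0.05. The second of these was lost without Rosa26-KO vehicle library 2 (0.10), WT vehicle library 1 (0.14) or 3 (0.12), and in DESeq2 or with RLE size factors (0.11 in both). Mthfd1l differed by -0.19 ± 0.09 (adjusted p = 0.11) and -0.35 ± 0.08, and the first passed without ADAM9i vehicle library 2 (-0.28) and in DESeq2 (-0.21).

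Between treated groups, all 9 enzymes were higher in Adam9-KO than in Rosa26-KO cells, beside 40.6% of all genes called, 21.0% higher and 19.6% lower (3907 and 3641 genes, or 3391 and 4137 with library size alone, which kept all 9 higher). Mthfd2 was at 3.62 times its Rosa26-KO level (log2 difference 1.86 ± 0.05, adjusted p = 5.95e-15), Psph at 2.73 times, Shmt2 at 2.53 times, and Shmt1 at 1.28 times. Treated ADAM9i cells were higher than treated WT cells for 8 enzymes (54.1% of all genes called, 28.0% higher and 26.1% lower), a comparison without the WT vehicle libraries. Library size alone gave 4065 higher and 6307 lower genes here (5273 and 4906 with TMM), shifted the median of all genes by -0.14, and left 7 enzymes higher. The largest differences were those of Mthfd1l (1.74 ± 0.10) and Mthfd1 (1.40 ± 0.04), while Mthfd2 was lower (-0.14 ± 0.04, adjusted p = 0.00639). Psph (0.15 ± 0.05) lost its call with library size alone (0.01), in limma (0.00257 on log2(FPKM + 1)), in the fit of all 24 libraries (0.14), and without ADAM9i rhCTHRC1 library 1 (0.14) or 3 (0.09) or WT rhCTHRC1 library 2 (0.10). Treated Rosa26-KO cells were lower than treated WT cells for 6 enzymes and higher for Mthfd1, Mthfd1l and Aldh1l2 (32.4% of all genes called, 14.1% lower and 18.3% higher, or 2807 and 3641 genes, and 3484 and 2829 with library size alone, which kept these calls). Mthfd2 differed most, at -1.67 ± 0.05, and Shmt2 next, at -1.004 ± 0.04.

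Across all 8 groups Rosa26-KO with rhCTHRC1 held the lowest level of 6 enzymes (Phgdh, Psat1, Psph, Shmt1, Shmt2 and Mthfd2), each apart from the group above it. WT with rhCTHRC1 held the lowest level of the other 3 (Mthfd1, Mthfd1l and Aldh1l2), also apart. At the top, WT vehicle was apart from the next group for 7 enzymes and overlapped ADAM9i with rhCTHRC1 for Mthfd1l. The order of the 8 groups was not computed for all genes, so these counts cannot be read as particular to the enzymes. Of all genes, 57.4% were called between ADAM9i vehicle and WT vehicle, and 53.7% between Rosa26-KO vehicle and WT vehicle. Mthfd1 was highest in ADAM9i with rhCTHRC1, at 141 ± 3.82 CPM (SD, n = 3), with 4 groups above WT vehicle, which was at 108 ± 2.03 CPM. In between, the 4 groups of ADAM9i and Adam9-KO cells and Rosa26-KO vehicle often could not be ordered. For Shmt2 these 5 groups ran from 361 ± 6.57 to 397 ± 11.9 CPM with each overlapping the next. For Mthfd2, Rosa26-KO vehicle (171 ± 7.98 CPM), Adam9-KO vehicle (170.4 ± 11.5 CPM) and Adam9-KO with rhCTHRC1 (170.1 ± 3.22 CPM) overlapped in the same way.

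Levels between genes were compared on the length-scaled FPKM that the authors deposited. In Rosa26-KO vehicle cells Phgdh was highest at 177 ± 2.70 FPKM (SD, n = 3), followed by Psat1 at 137 ± 2.22 FPKM and Shmt2 at 114 ± 3.88 FPKM. Aldh1l2 was at 55.9 ± 0.756 FPKM and Mthfd2 at 43.7 ± 2.06 FPKM. The lowest were Mthfd1 (23.9 ± 1.25 FPKM), Psph (23.1 ± 0.546 FPKM), Mthfd1l (18.6 ± 0.532 FPKM) and Shmt1 (16.2 ± 0.309 FPKM). The mitochondrial Shmt2 transcript therefore exceeded the cytosolic Shmt1 transcript several-fold in every group. The ratio of Shmt2 to Shmt1 was 8.49 ± 0.615 in Adam9-KO cells with rhCTHRC1, against 7.60 ± 0.255 with vehicle. In Rosa26-KO cells it was 4.29 ± 0.203 with rhCTHRC1 and 7.02 ± 0.112 with vehicle. In ADAM9i cells it was 5.83 ± 0.229 with rhCTHRC1 and 6.69 ± 0.193 with vehicle, and in WT cells 6.19 ± 0.354 and 7.63 ± 0.055. The treated ratios thus lay below the vehicle ratios in every library of Rosa26-KO, WT and ADAM9i cells, but not of Adam9-KO cells.

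The ratio of Mthfd2 to Mthfd1 was 1.97 ± 0.178 in Adam9-KO cells with rhCTHRC1 and 2.18 ± 0.186 with vehicle. In Rosa26-KO cells it was 0.824 ± 0.035 with rhCTHRC1 and 1.83 ± 0.164 with vehicle, and these treated libraries were the only ones of the 24 in which the cytosolic transcript exceeded the mitochondrial one. In ADAM9i cells it was 1.21 ± 0.062 and 1.22 ± 0.107. WT cells had the highest ratios, 3.52 ± 0.138 with rhCTHRC1 and 4.98 ± 0.055 with vehicle. Mthfd1l over Mthfd1 ran from 0.62 ± 0.04 in treated WT cells to 1.10 ± 0.037 in WT vehicle. Aldh1l2 over Mthfd1l was 6.95 ± 0.104 in WT vehicle and at most 3.82 ± 0.173 elsewhere, in treated WT cells. These ratios are descriptions and were not tested.

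**Figure D4:**
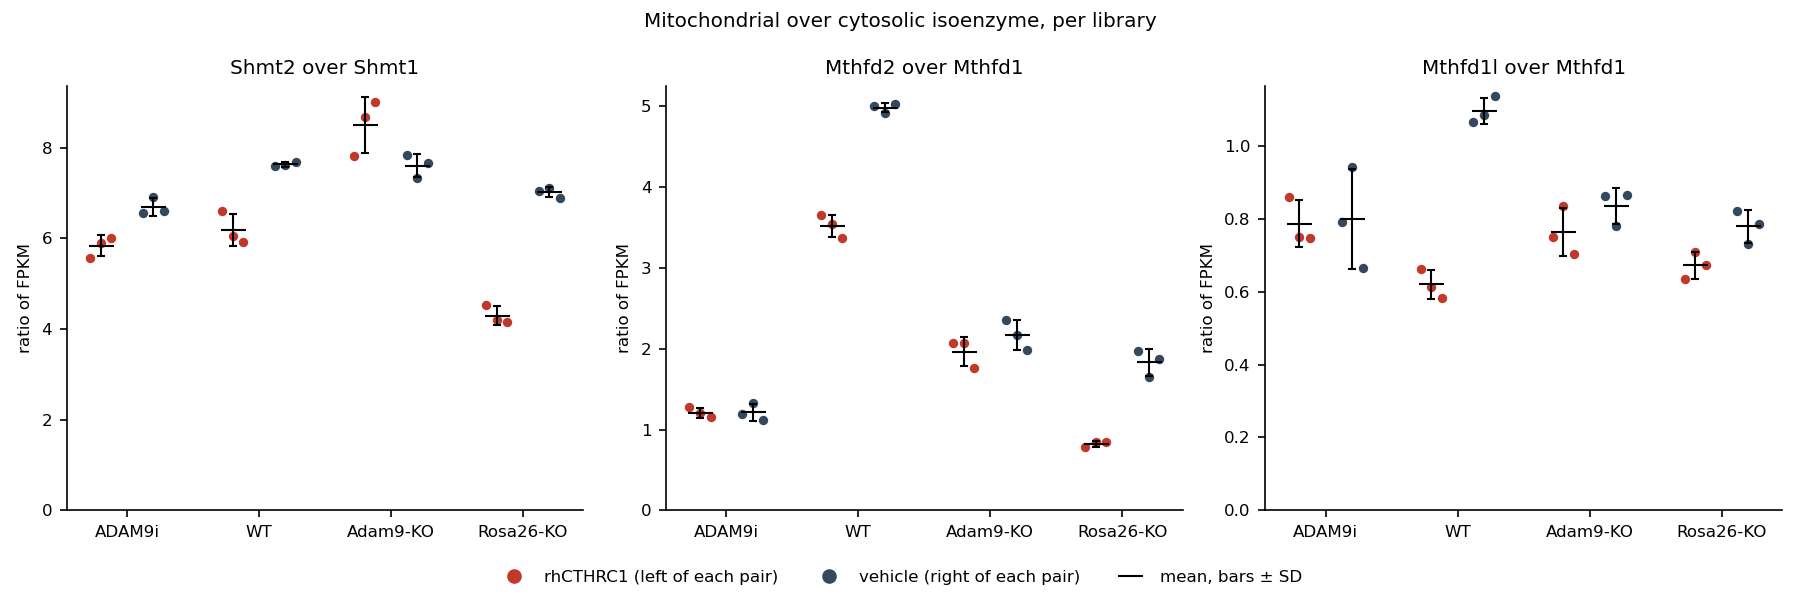
Ratio of the FPKM of a mitochondrial enzyme to that of its cytosolic counterpart in each library (Shmt2 over Shmt1, Mthfd2 over Mthfd1, Mthfd1l over Mthfd1), by background, rhCTHRC1 left of vehicle, bars for mean ± SD of 3. The Rosa26-KO treated libraries hold the lowest ratios of the first 2 panels, at 4.15 to 4.53 and 0.784 to 0.845.

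Other genes around the pathway moved less uniformly, apart from the genes linked to ATF4. Of 20 such genes, 0 were called higher or lower in Adam9-KO cells, and all 20 were lower in Rosa26-KO cells (median log2 change -1.21, against 0.03 for all genes). In ADAM9i cells 2 were higher and 3 lower, and in WT cells all 20 were lower (median -1.36, against 0.03). Without rhCTHRC1, all 20 were also lower than WT vehicle in ADAM9i vehicle (median -1.76) and in Rosa26-KO vehicle (median -1.51). The WT fall of this list uses the WT vehicle libraries, which stood apart, and was not set against the other vehicle groups. Of all genes called, 48.6% were higher in the Rosa26-KO response, 51.1% in the WT response and 66.8% in the ADAM9i response. No list, here or below, was tested against the shares of all genes called. Values after gene names are log2 changes ± SE under rhCTHRC1. Atf4 itself was at 224, 209 and 191 CPM in the rhCTHRC1 libraries of Rosa26-KO cells, against 510.2, 503 and 479 CPM in the vehicle libraries (log2 change -1.26 ± 0.04). In WT cells it was at 539, 549 and 572 CPM with rhCTHRC1, against 839.7, 855 and 747 CPM with vehicle (log2 change -0.57 ± 0.04), and treated WT cells thus held more Atf4 than Rosa26-KO vehicle. Asns, asparagine synthetase, had -1.64 ± 0.04 in Rosa26-KO and -1.45 ± 0.04 in WT cells. Chac1, which degrades glutathione, had 0.27 ± 0.06 in ADAM9i cells and -2.24 ± 0.07 in Rosa26-KO cells. Pycr1, of proline synthesis, had -0.55 ± 0.07 in ADAM9i cells, where it and Aldh1l2 were both called lower. Among upstream regulators, Myc had -1.49 ± 0.05 in Rosa26-KO cells and -2.56 ± 0.06 in WT cells. Of 10 upstream genes, 0 were called in ADAM9i or in Adam9-KO cells, 2 were higher and 6 lower in Rosa26-KO cells (median -0.19), and 4 were higher and 6 lower in WT cells (median -0.36).

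De novo purine synthesis, which uses formyl folate, gave 0 called genes of 12 in Adam9-KO cells and 1 higher and 10 lower in Rosa26-KO cells (median log2 change -0.50). It gave 3 higher and 0 lower in ADAM9i cells and 2 higher and 10 lower in WT cells (median -1.04). Atic, which carries out the last steps of the pathway with formyl folate, had log2 changes of 0.14 ± 0.04 in ADAM9i, -0.78 ± 0.04 in Rosa26-KO and -2.06 ± 0.04 in WT cells. Gart, which also takes up formyl folate, had 0.16 ± 0.04, -0.68 ± 0.06 and -1.28 ± 0.04 in the same backgrounds. Paics, another purine enzyme, moved the other way, with 0.17 ± 0.03 in Rosa26-KO and 0.18 ± 0.03 in WT cells. Glycolysis, the source of the carbon, gave 0 called genes of 14 in ADAM9i and in Adam9-KO cells, 1 higher and 10 lower in Rosa26-KO cells (median -0.49), and 3 higher and 7 lower in WT cells (median -0.15). The counts of both lists stand beside the shares of all genes called in each response, given above with the enzymes. Ldha had -1.23 ± 0.05 and Pgk1 -0.93 ± 0.04 in Rosa26-KO cells, while Pfkm rose by 1.95 ± 0.04 in WT cells.

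The other folate-cycle genes split, with 0 called of 20 in ADAM9i and in Adam9-KO cells, 4 higher and 9 lower in Rosa26-KO cells (median log2 change -0.22), and 4 higher and 10 lower in WT cells (median -0.18). All genes also split between higher and lower in Rosa26-KO and WT cells, in the shares given above with the enzymes (median 0.03 in both). Aldh1l1, the cytosolic counterpart of Aldh1l2, moved against it. Aldh1l1 was at 13.4, 12.6 and 13.4 CPM in the rhCTHRC1 libraries of Rosa26-KO cells, against 5.82, 4.78 and 5.44 CPM in the vehicle libraries (log2 change 1.30 ± 0.14), where Aldh1l2 fell. In WT cells Aldh1l1 was at 13.0, 11.2 and 12.1 CPM with rhCTHRC1, against 0.806, 0.611 and 0.173 CPM with vehicle (log2 change 4.47 ± 0.29). WT vehicle held its lowest level of all groups, 9 to 48 counts a library. Slc19a1, the reduced folate carrier, had log2 changes of -0.74 ± 0.09 in Rosa26-KO and -1.84 ± 0.08 in WT cells. Gcsh, of glycine cleavage, had -0.85 ± 0.06 in Rosa26-KO cells. Mthfd2l, the close relative of Mthfd2, was low in every library, at 15.0 to 21.6 CPM.

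Serine carriers and serine-using enzymes gave 0 called genes of 16 in Adam9-KO cells and 3 higher and 7 lower in Rosa26-KO cells (median log2 change -0.06). They gave 2 higher and 0 lower in ADAM9i cells and 6 higher and 7 lower in WT cells (median -0.12). In Rosa26-KO and WT cells all genes also split between higher and lower, in the shares given above with the enzymes (median 0.03 in both). Slc1a4, a neutral amino-acid carrier that takes up serine, had log2 changes of -1.16 ± 0.08 in Rosa26-KO and -1.56 ± 0.06 in WT cells. Cth, which completes cysteine synthesis from serine, had -1.78 ± 0.11 and -2.13 ± 0.06. Cbs, which starts that synthesis, moved the other way, with 1.83 ± 0.31 and 1.27 ± 0.37, at no more than 2.84 CPM in any group of these contrasts. Slc38a1, another carrier, had 0.17 ± 0.03 in ADAM9i and -0.60 ± 0.03 in Rosa26-KO cells.

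**Figure D5:**
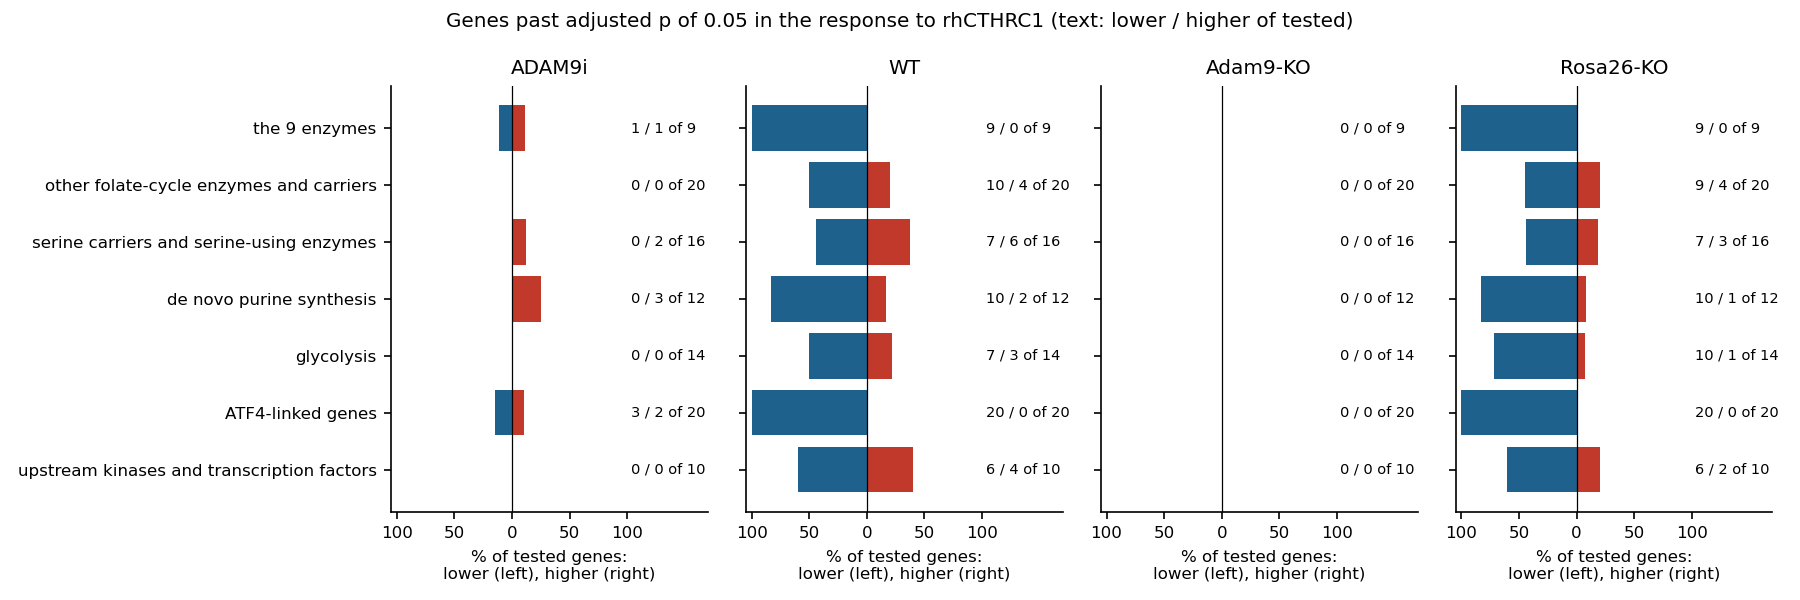
Share of the tested genes of each list called lower (left of 0) or higher (right of 0) under rhCTHRC1 in ADAM9i, WT, Adam9-KO and Rosa26-KO cells, with the numbers beside the bars. The 9 enzymes and the 20 genes linked to ATF4 are the lists with every gene lower in both WT and Rosa26-KO cells. The WT values use the WT vehicle libraries, which stood apart from the rest.

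Genes outside the 9 with the pattern most like the enzymes were sought by the root-mean-square difference of log2 CPM, each gene centred on its own mean, over the 24 libraries and 19891 genes. These libraries share groups, so the values are descriptions. Of these genes, the nearest to the median profile of the 9 were Lars (0.076), leucyl-tRNA synthetase, and Xpot (0.094), which exports tRNA from the nucleus, followed by Cpox (0.113), Rcc2 (0.120) and Gm9347 (0.124). Of the 10 nearest, 6 stayed among the 10 nearest without the WT vehicle libraries. For Mthfd2 the nearest was Asns (0.143), then Slc7a5 (0.180), an amino-acid carrier. For Psat1 it was Tars (0.099) and for Psph Yars (0.153), both tRNA synthetases. For Phgdh it was Lars (0.098), and for Aldh1l2 Pycr1 (0.187). For Shmt2 it was Gm9347 (0.123). The 2 cytosolic enzymes had other neighbours, Nrf1 (0.112) for Shmt1 and Cct3 (0.060), a chaperonin subunit, for Mthfd1. So did the mitochondrial Mthfd1l, with Lrrc59 (0.118), and the split was thus not between mitochondrial and cytosolic enzymes. Most single-enzyme neighbours depended on the WT vehicle libraries: without them 0 to 2 of the 3 nearest genes of an enzyme were kept, 0 for Mthfd1. The nearest was then Hspa9 (0.099) for Phgdh, Cd24a (0.129) for Aldh1l2, Slc16a10 (0.088) for Shmt1 and Eif3b (0.037) for Mthfd1, while Mthfd2, Psat1 and Psph still had Asns (0.122), Tars (0.105) and Yars (0.108). For Shmt2 the nearest was then Yars (0.113) and for Mthfd1l Pop1 (0.115). With the enzymes themselves included, over these 21 libraries, Phgdh and Psat1 were each other's nearest gene among all 19890 others, at 0.081. Psph and Shmt2 each had rank 2 for the other, at 0.114. Over all 24 libraries Psat1 had rank 41 for Phgdh, and Phgdh rank 18 for Psat1, at 0.203. Shmt2 had rank 11 for Psph, and Psph rank 30 for Shmt2, at 0.233. The enzymes' own ranks from their median profile ran from 1 (Phgdh) to 3172 (Mthfd1) over all 24 libraries, with Mthfd2 at 927 and Mthfd1l at 1464. That profile is made from the 9 themselves, so these ranks cannot be set against those of other genes.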

How the data were processed

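RNA libraries were made with a stranded total RNA kit and sequenced in pairs, per the labels' protocols. The authors deposited raw counts per gene and FPKM values (scaled by gene length and library depth) for the 24 libraries. HISAT2, StringTie, DESeq2 and GRCm38 are named in the submitters' processing notes, without versions. Whether counting used strand is not given in the sources used here. Library totals ran from 53135752 to 65833125 counts, and a count of 0 would allow up to 3 counts, or 0.045 to 0.058 CPM, counting error only.

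Counts were tested with edgeR 4.0.16 (R 4.3.3) by the quasi-likelihood test, with TMM scaling, filterByExpr, a mean per group, robust dispersions and Benjamini-Hochberg adjustment over all genes tested at 0.05. Each SE was derived from this test, as the absolute log2 change divided by the square root of the F statistic. WT and ADAM9i libraries (18816 genes) and Rosa26-KO and Adam9-KO libraries (18594 genes) were fitted as 12 each, and comparisons across these sets in a fit of all 24 (19891 genes), 15 comparisons in all. FPKM served for levels between genes, and limma 3.58.1 on log2(FPKM + 1) and DESeq2 1.42.0 as alternatives. For likeness, a prior count of 2 entered the log2 CPM. The fitting was tested on simulated data. The members and gene lists were chosen with earlier results of these data known. Genes outside the 9 were named as nearest in likeness, or as the up to 3 highest and 3 lowest called genes of a list in a response at 1 CPM or more. Mthfd2l, and Atf4 and Asns in WT cells, fell outside that rule and were chosen after their values were seen. CPM were scaled over all 24 libraries.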

Additional observations from a re-analysis of the deposited data

Results flagged for a closer look

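The results listed here are the enzymes whose response to rhCTHRC1 differed between backgrounds in a test of the difference itself (edgeR, adjusted p under 0.05), as log2 differences. ADAM9i minus WT gave Phgdh 1.75, Psat1 1.35, Psph 2.07, Shmt1 1.39, Shmt2 1.498, Mthfd1 1.13, Mthfd1l 1.93, Mthfd2 1.62 and Aldh1l2 2.27, with adjusted p of 8.49e-17 to 9.85e-08 (56.0% of all genes called). Adam9-KO minus Rosa26-KO gave Phgdh 1.16, Psat1 1.33, Psph 1.58, Shmt1 0.55, Shmt2 1.42, Mthfd1 0.88, Mthfd1l 0.95, Mthfd2 1.87 and Aldh1l2 0.75, with adjusted p of 1.41e-12 to 2.48e-06 (37.9%). ADAM9i minus Rosa26-KO gave Phgdh 1.08, Psat1 1.30, Psph 1.39, Shmt1 0.88, Shmt2 1.39, Mthfd1 0.83, Mthfd1l 1.03, Mthfd2 1.98 and Aldh1l2 0.40, with adjusted p of 1.56e-18 to 1.07e-06 (35.4%). Rosa26-KO minus WT gave Phgdh 0.65, Psph 0.67, Shmt1 0.50, Mthfd1 0.28, Mthfd1l 0.89, Mthfd2 -0.37 and Aldh1l2 1.86, with adjusted p of 6.51e-21 to 0.00283 over these 7 (43.8%). The comparisons with WT use the WT vehicle libraries, which stood apart from the rest, and those across backgrounds share their Rosa26-KO, ADAM9i or WT libraries with each other. No enzyme's groups were tested for single outlying libraries, since each group holds 3.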

How the results depend on the processing

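Enzyme results were also computed with other settings than leaving out a library. Of these, 1212 kept their side of the threshold, 25 lost a call, 4 gained one and 1 reversed. Leaving out each library in turn kept 2133, lost 22 and gained 5. A change of sign was counted as a reversal only where the main fit or the other fit called the result. Uncalled results could thus change sign and count as kept, as Psat1 in the ADAM9i response did with libraries left out (-0.021 to 0.048). The reversal was Mthfd2 in treated WT cells, at 0.26 with ADAM9i vehicle in place of WT vehicle. The 9 of 9 calls in the Rosa26-KO response and in the Adam9-KO minus Rosa26-KO response held under every setting run. In the ADAM9i response DESeq2 called 1210 genes and limma with no filter 156, against 749, and the 3 limma versions called 1 enzyme, against 2. In the Adam9-KO response DESeq2 called 37 genes and limma with no filter 1, against 0. For Adam9-KO minus Rosa26-KO under vehicle, limma with no filter called 0 enzymes and 1364 genes, against 4 and 2825. Leaving out 1 library gave 1 to 2 enzymes and 397 to 723 genes in the ADAM9i response (423 without rhCTHRC1 library 1, 397 without rhCTHRC1 library 3, 453 without vehicle library 2 and 423 without vehicle library 3). It gave 0 to 3 genes in the Adam9-KO response (3 without rhCTHRC1 library 1). It gave 2 to 5 enzymes and 1760 to 3314 genes for Adam9-KO minus Rosa26-KO under vehicle (2 and 1760 without Adam9-KO vehicle library 1, and 1788 genes without Adam9-KO vehicle library 2). The cause was not tested. Adding the replicate number as a block ended 1 enzyme call, Mthfd1l under vehicle (-0.17), although the numbers were not shown to pair libraries (correlations of same-numbered deviations of -0.045 to 0.049, with 11 of 33 best matches of the same number).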
